A study of Mus musculus with 6 samples.

Results

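Transcripts of the Fc receptors, the proteins with which immune cells bind the constant part of antibodies, were followed in mouse bone marrow-derived dendritic cells (BMDCs) exposed to IL-4. The set comprised every matched probe whose gene symbol was *Fcgr1*, *Fcgr2b*, *Fcgr3*, *Fcgr4*, *Fcer1g* or *Fcgrt*. Symbols could be matched only among the 19293 probes with normalized values deposited by the authors, so further probes of these genes may exist. The set held 11 probes of the Illumina MouseWG-6 array, which carries 45281, and the 6 genes were among 8921 named genes that could be tested. All 11 probes passed the detection filter, as did 15888 of the 19293 probes. 10 of them were detected on all 6 arrays, and one of the 5 *Fcgr2b* probes was detected on 2 of 3 IL-4 arrays and on all 3 control arrays.

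The IL-4 group comprised 3 arrays of BMDCs given 20 ng/ml recombinant IL-4 for 6 h, and the control group 3 arrays of BMDCs kept for those 6 h without it. Both groups came from marrow of 3 male C57BL/6 mice grown for 10 days in 20 ng/ml GM-CSF, and both stood in 5 ng/ml GM-CSF during the last 6 h, so GM-CSF is common to every array. Arrays are numbered replicate 1 to 3 within each group. The sources do not state that a number stands for one mouse, but arrays with the same number shared their deviations, and fits with the number as a block are therefore given beside the unpaired fits.

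Median bead signals were 83.8 to 121 per array, with control replicate 1 the dimmest, and 33.0% to 38.0% of probes were detected. Marker genes were read beside the dendritic cell label, which their levels do not settle. *Cd74*, which chaperones MHC class II molecules, had a normalized log2 signal of 13.96 to 14.12, and *Itgax* (CD11c) 6.33 to 7.33. *Zbtb46*, whose expression marks the conventional dendritic cell lineage, had 6.17 to 6.50. Of the 14 listed markers of conventional dendritic cells 11 were tested, *Clec9a* did not pass the detection filter, and *Cd209a* was dim (5.07 to 5.74). In the comparison of IL-4 with control, 8 of these 11 markers were above 0, around a median log2 difference of 0.04. The blocked limma fit called 2 of the 11, against 2.66% of all genes. These were the transcription factors *Irf4* (1.08, adjusted p = 0.0101) and *Batf3* (0.91, adjusted p = 0.0104), both higher with IL-4. *Dpp4* was lower in all 3 pairs (-0.55) and was not called (adjusted p = 0.112 in the same fit). Markers of neutrophils, mast cells and macrophages were also measured, at levels that differed between replicate numbers, and their values are given with the receptors they moved with. Of the macrophage and monocyte markers, *C1qb* had 11.03 to 12.01 and *Marco* 4.49 to 5.23. In such bulk RNA, fewer cells of a type and less RNA per cell cannot be told apart.

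Mouse myeloid cells read IgG through activating and inhibitory receptors. FcγRI (*Fcgr1*) binds monomeric IgG2a with high affinity, whereas FcγRIII (*Fcgr3*) and FcγRIV (*Fcgr4*) bind immune complexes. All of them depend on the common γ chain (*Fcer1g*), whose ITAM motif recruits the kinase Syk. FcγRIIb (*Fcgr2b*) is the inhibitory counterpart, and its ITIM recruits the lipid phosphatase SHIP-1 (*Inpp5d*). FcRn (*Fcgrt*) is of another family. It resembles an MHC class I heavy chain, pairs with β2-microglobulin, and binds IgG in acidic endosomes, which returns the antibody to the surface and, in dendritic cells, steers immune complexes toward antigen presentation. *Fcgr2b*, *Fcgr3*, *Fcgr4* and *Fcer1g* lie near each other on mouse chromosome 1, *Fcgr1* on chromosome 3 and *Fcgrt* on chromosome 7.

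Promoter windows are shown for the 2 genes with a probe called in the results below, *Fcgr4* and *Fcgrt*. Each runs from 250 bases before to 50 bases after the transcription start in RefSeq (GRCm38.p6), 5′ to 3′ on the strand of the gene. Capitals mark matches to 3 motifs that were searched on both strands: the STAT6-type palindrome (TTC and GAA with any 4 bases between them), the PU.1 core GAGGAAGT and the interferon response type (GAAA and GAAA with any 2 bases between them). No match overlapped another. The *Fcgr4* window is chr1:171018676-171018975 (+ strand) and that of *Fcgrt* chr7:45103773-45104072 (- strand).
Fcgr4: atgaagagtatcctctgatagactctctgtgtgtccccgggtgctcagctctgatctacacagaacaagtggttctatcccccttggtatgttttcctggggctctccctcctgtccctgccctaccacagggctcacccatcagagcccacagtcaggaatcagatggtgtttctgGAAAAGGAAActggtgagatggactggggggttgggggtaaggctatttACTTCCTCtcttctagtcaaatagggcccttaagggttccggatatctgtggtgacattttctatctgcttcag
Fcgrt: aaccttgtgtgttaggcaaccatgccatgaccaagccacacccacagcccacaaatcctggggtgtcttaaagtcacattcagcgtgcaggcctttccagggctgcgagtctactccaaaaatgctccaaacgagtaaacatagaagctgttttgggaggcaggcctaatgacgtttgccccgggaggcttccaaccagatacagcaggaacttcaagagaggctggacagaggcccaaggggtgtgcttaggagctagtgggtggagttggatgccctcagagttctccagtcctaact

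The *Fcgr4* window held GAAAAGGAAA, of the interferon response type, 73 bases before the start, and ACTTCCTC, the PU.1 core read on the other strand, 24 bases before it. No capital stands in the *Fcgrt* window, and the 5 windows of *Fcgr1*, *Fcgr2b*, *Fcgr3* (which has 2) and *Fcer1g* held none of these motifs either. None of the 7 windows held the STAT6-type palindrome, which occurred in 6.95% of 32851 mouse promoter windows of the same length. The PU.1 core occurred in 3.2% of them and the interferon response type in 3.44%. These matches describe letters in the reference sequence, and no binding was measured here.

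With IL-4, both probes of *Fcgrt* were higher and the probe of *Fcgr4* lower in all 3 replicate pairs. One of the *Fcgrt* probes passed the test, with a log2 difference of 0.90 ± 0.17, and so did *Fcgr4*, with -0.75 ± 0.15. These SEs are those of the blocked limma fit, which also draws on the variance of all tested probes, and not of the 3 pairs alone. Both calls rest on the fit with replicate number as a block. Without the block, limma called none of the 11 Fc receptor probes (1 at an unadjusted p under 0.05), against a background of 0.112% of all 16071 tested probes (7.24% at an unadjusted p under 0.05). With the block it called 2 of 11, 1 higher and 1 lower, against 2.27% of all probes (1.44% higher and 0.834% lower). A shift in the same direction in all 3 pairs was seen in 6 of the 11 probes, one of them by only 0.0046 in replicate 3, and in 33.6% of all probes. Over the brightest probe of each of the 6 genes the median log2 difference was -0.16, with 2 of 6 above 0, beside -0.015 over all 8921 genes, with 4213 above 0. Over all 11 probes it was 0.013, with 6 above 0.

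**Figure D1:**
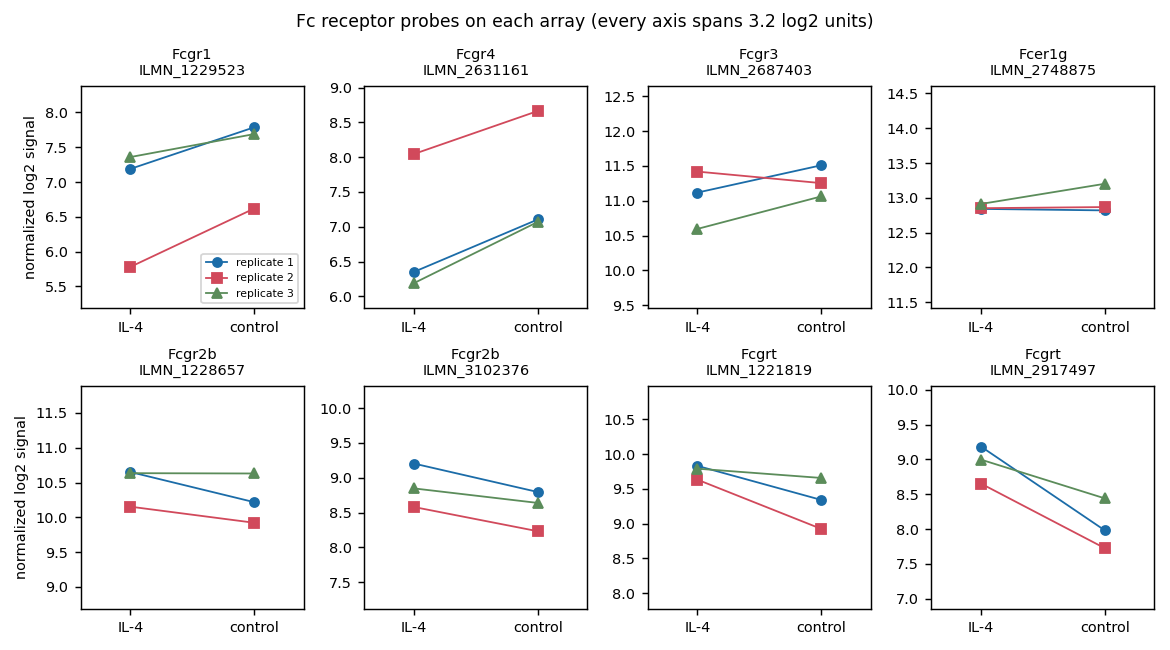
Normalized log2 signal of 8 Fc receptor probes (all but the 3 dim *Fcgr2b* probes) on each array, IL-4 left and control right, with a line joining the arrays of the same replicate number. Within the panels of both *Fcgrt* probes, *Fcgr4*, *Fcgr1* and both *Fcgr2b* probes all lines slope the same way. The line of replicate 3 is nearly flat for *Fcgr2b* ILMN_1228657. The arrays of replicate 2 lie highest for *Fcgr4* and lowest for *Fcgr1*.

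Among the activating receptors, *Fcgr4* had normalized log2 signals of 6.35, 8.05 and 6.19 on IL-4 replicates 1, 2 and 3, against 7.10, 8.66 and 7.07 on control replicates 1, 2 and 3. Each IL-4 array was below the control array of its own number, by 0.75, 0.62 and 0.88 log2 units for replicates 1, 2 and 3, while the groups as wholes overlapped because both arrays of replicate 2 were high. The group means were 6.86 ± 1.03 with IL-4 and 7.61 ± 0.91 in controls (SD, n = 3 each). With this normalization the IL-4 signal was 59.4% of the control signal. The log2 difference was smaller with the authors' deposited normalized values (-0.52) and without background correction (-0.45). Without the block the difference of -0.75 had an SE of 0.54 and an adjusted p of 0.895 in limma, and it ran from -1.34 to -0.23 with single arrays left out. With the block the SE was 0.15 and the adjusted p 0.0226, with a 95% interval of -1.08 to -0.42.

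The blocked call of *Fcgr4* was lost without replicate 3 (log2 difference -0.69, limma adjusted p = 0.185), with the normalized values that the authors deposited (-0.52, adjusted p = 0.111) and without the detection filter (adjusted p = 0.152). *Fcgr4* was also dim. Its bead signals before normalization were 167, 271 and 198 on IL-4 replicates 1, 2 and 3, against 143, 490 and 255 on the control arrays. In replicate 1 the order before normalization was thus the reverse of that after it, and the control array of that pair was the dimmest of all 6.

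*Fcgr1* lay in the same direction in all 3 pairs and did not pass the test. It had normalized log2 signals of 7.19, 5.78 and 7.36 on IL-4 replicates 1, 2 and 3, against 7.79, 6.62 and 7.69 on the control arrays. The array of replicate 2 was the lowest of its group in both conditions, and the groups overlapped. The means were 6.78 ± 0.87 with IL-4 and 7.37 ± 0.65 in controls (SD, n = 3 each), a log2 difference of -0.59. The SE was 0.44 and the limma adjusted p 0.904 without the block, and 0.16 and 0.0972 with it, with a 95% interval of -0.94 to -0.24 in the blocked fit. Before normalization this probe read 236, 123 and 335 with IL-4 and 184, 185 and 345 in controls, so that replicate 1 again ran the other way.

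*Fcgr3* was bright and did not differ beyond the spread of its arrays. Its normalized log2 signals were 11.12, 11.42 and 10.59 on IL-4 replicates 1, 2 and 3, against 11.51, 11.25 and 11.06 on the control arrays. IL-4 was the lower in replicates 1 and 3 and the higher in replicate 2. The log2 difference was -0.23, with a 95% interval of -0.60 to 0.14 in the blocked fit (limma adjusted p = 0.635).

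*Fcer1g*, the shared signalling chain, varied least among the activating members. Its normalized log2 signals were 12.84, 12.85 and 12.91 on IL-4 replicates 1, 2 and 3, against 12.82, 12.87 and 13.20 on the control arrays. Only control replicate 3 stood off from the other arrays. The log2 difference of -0.09 had a blocked 95% interval of -0.43 to 0.24 (limma adjusted p = 0.857), and it turned to 0.025 when control replicate 3 was left out.

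The inhibitory receptor *Fcgr2b* was covered by 5 probes, of which none passed the test and which did not share a direction. The brightest, ILMN_1228657, had normalized log2 signals of 10.65, 10.15 and 10.63 on IL-4 replicates 1, 2 and 3, against 10.22, 9.92 and 10.63 on the control arrays. The IL-4 array was higher by 0.43 and 0.23 in replicates 1 and 2 and by only 0.0046 in replicate 3, and the groups overlapped. Its log2 difference was 0.22, with a blocked 95% interval of -0.12 to 0.57 (limma adjusted p = 0.618).

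The next brightest *Fcgr2b* probe, ILMN_3102376, had signals of 9.20, 8.58 and 8.85 with IL-4, against 8.80, 8.23 and 8.64 in controls, in the order of replicates 1, 2 and 3. IL-4 was higher in all 3 pairs, by 0.41, 0.35 and 0.21, but the groups overlapped and the mean difference of 0.32 had a blocked adjusted p of 0.389 in limma. The other 3 *Fcgr2b* probes were dim, with signals from 4.69 to 6.30, and their log2 differences were 0.25 (ILMN_2447970), 0.01 (ILMN_3029178) and -0.08 (ILMN_2577664). Across the 6 arrays the 2 bright probes moved alike (Pearson r = 0.77), whereas ILMN_1228657 and the dim ILMN_3029178 moved oppositely (r = -0.74). These correlations are descriptions over 6 arrays that share treatment and replicate number. ILMN_1228657 is annotated to one RefSeq transcript, ILMN_3102376, ILMN_2447970 and ILMN_3029178 to another, and ILMN_2577664 to a cDNA clone, and whether the probes read different isoforms was not tested.

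*Fcgrt*, the FcRn heavy chain, had the only probe of the 11 whose groups did not overlap. That is 1 of 11, against 12.1% of all tested probes, so the count was not above the background. ILMN_2917497 had normalized log2 signals of 9.19, 8.65 and 9.00 on IL-4 replicates 1, 2 and 3, against 7.98, 7.73 and 8.44 on the control arrays. The lowest IL-4 array was above the highest control array, and the differences within pairs were 1.20, 0.93 and 0.56. The means were 8.95 ± 0.27 with IL-4 and 8.05 ± 0.36 in controls (SD, n = 3 each), which is 1.86-fold higher with IL-4. Without the block the SE was 0.23 and the limma adjusted p 0.274, and with the block they were 0.17 and 0.0140, with a 95% interval of 0.53 to 1.26.

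This call of *Fcgrt* held in the blocked fit when any one replicate number was left out (limma adjusted p = 0.0028 to 0.0263). It was lost with the normalized values that the authors deposited (0.79, adjusted p = 0.168) and without the detection filter (adjusted p = 0.238), which were also the settings under which the blocked fit called 0 probes in all.

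The brighter *Fcgrt* probe, ILMN_1221819, is annotated to the same RefSeq transcript and shifted less. Its signals were 9.83, 9.63 and 9.79 on IL-4 replicates 1, 2 and 3, against 9.34, 8.92 and 9.66 on the control arrays. IL-4 was higher in all 3 pairs, by 0.49, 0.71 and 0.13, but IL-4 replicate 2 lay just below control replicate 3. The mean log2 difference was 0.44, with a blocked 95% interval of 0.09 to 0.80 and a limma adjusted p of 0.244 (0.718 without the block). The 2 probes therefore gave the same direction and different sizes, and only one of them passed the test.

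**Figure D2:**
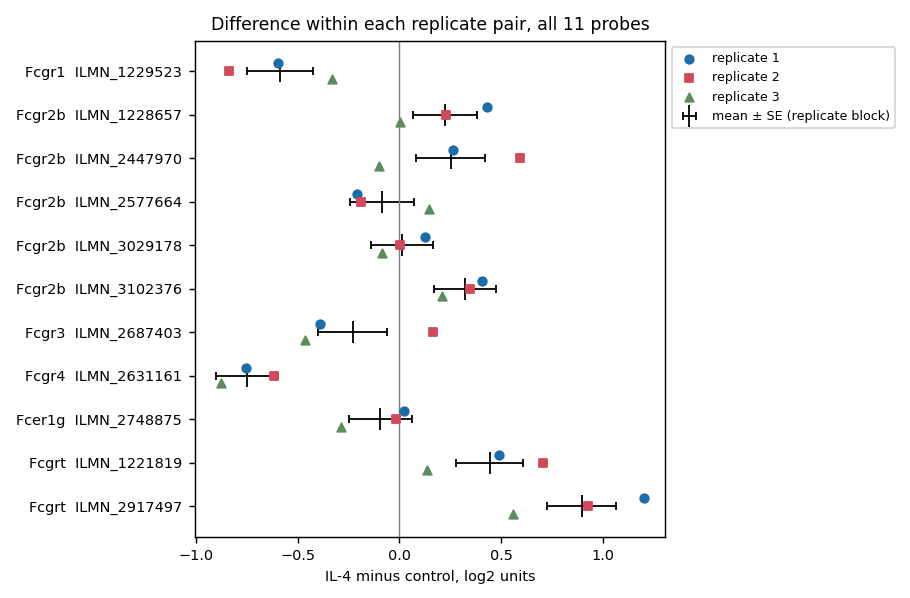
IL-4 minus control within each replicate pair, in log2 units, for the 11 probes, with the mean and its SE from the blocked fit in black. All 3 pairs lie right of 0 for both *Fcgrt* probes and left of 0 for *Fcgr4* and *Fcgr1*. They also lie right of 0 for *Fcgr2b* ILMN_3102376 and ILMN_1228657, with replicate 3 of the latter almost at 0.

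**Figure D3:**
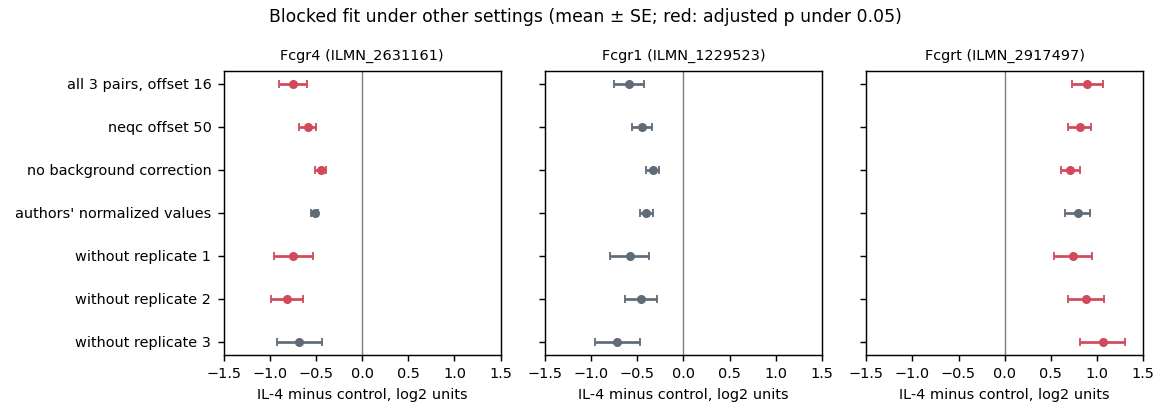
Log2 difference of IL-4 minus control (mean ± SE) for *Fcgr4*, *Fcgr1* and *Fcgrt* ILMN_2917497 in the blocked fit and under 6 changes to it, with red where the adjusted p was under 0.05. All 3 keep their direction in every row, *Fcgr1* is red in none, and *Fcgr4* and *Fcgrt* lose the call with the authors' normalized values, *Fcgr4* also without replicate 3.

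Replicate number separated *Fcgr4* and *Fcgr1* more than IL-4 did, and in opposite directions. Averaged over both conditions, *Fcgr4* was at 6.73, 8.35 and 6.63 in replicates 1, 2 and 3, so that replicate 2 was 1.68 log2 units above the other replicates. *Fcgr1* was at 7.49, 6.20 and 7.52, so that replicate 2 was 1.31 log2 units below them. The F-test of replicate number, given treatment, had a limma adjusted p of 1.45e-04 for *Fcgr4* and 0.00181 for *Fcgr1*. It called these 2 of the 11 Fc receptor probes, against 5.25% of all tested probes and 5.91% of genes at their brightest probe. *Fcgr3* (adjusted p = 0.247) and *Fcer1g* (0.682) did not pass it.

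Marker genes of neutrophils, mast cells and macrophages moved with the same replicate. The 2 measured eosinophil markers passed the F-test too, but their mean was highest in replicate 3. It was 7.04, 7.51 and 8.46 on IL-4 replicates 1, 2 and 3, and 6.93, 7.43 and 8.29 on the control arrays. The mean of the 12 measured neutrophil markers was 7.69, 9.20 and 7.45 on IL-4 replicates 1, 2 and 3, and 7.69, 9.27 and 7.57 on the control arrays. 11 of these 12 passed the F-test, and 10 were higher and 1 lower on both arrays of replicate 2. *Ngp*, a granule protein of neutrophil precursors, was at 11.64 with IL-4 and 11.67 in the control of replicate 2, and at 7.96 to 9.26 elsewhere. The high arrays for these markers were thus the high arrays for *Fcgr4*.

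The mean of the 5 measured mast cell and basophil markers was 6.90, 9.03 and 6.39 with IL-4 and 7.15, 9.18 and 6.44 in controls, in the same order of replicates. Of these 5, 4 were higher and 1 was lower on both arrays of replicate 2. *Cpa3*, the mast cell carboxypeptidase, was at 11.65 with IL-4 and 11.78 in the control of replicate 2, and at 6.20 to 8.76 elsewhere. Of the 12 measured macrophage and monocyte markers 9 were lower and 1 was higher in replicate 2, and their mean was 8.79, 7.83 and 8.67 with IL-4 and 8.74, 7.80 and 8.83 in controls. *Mrc1*, the mannose receptor, was at 6.21 with IL-4 and 5.80 in the control of replicate 2, against 7.73 to 9.51 elsewhere, and *Fcgr1* was low on the same arrays. Among all 8921 genes, both arrays of replicate 2 lay above the other 4 for 920 genes and below them for 1083. The part of these cell types in the levels of *Fcgr4* and *Fcgr1* was not tested. Within each pair these marker means differed between IL-4 and control by less than between replicate 2 and the other replicates. The same held for *Fcgr4* and *Fcgr1* themselves. Single markers moved with IL-4 as well. In the macrophage and monocyte list the blocked limma fit called *Mrc1* higher (0.87, adjusted p = 0.0232) and *Cd14*, the lipopolysaccharide co-receptor, lower (-0.93, adjusted p = 0.0267).

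**Figure D4:**
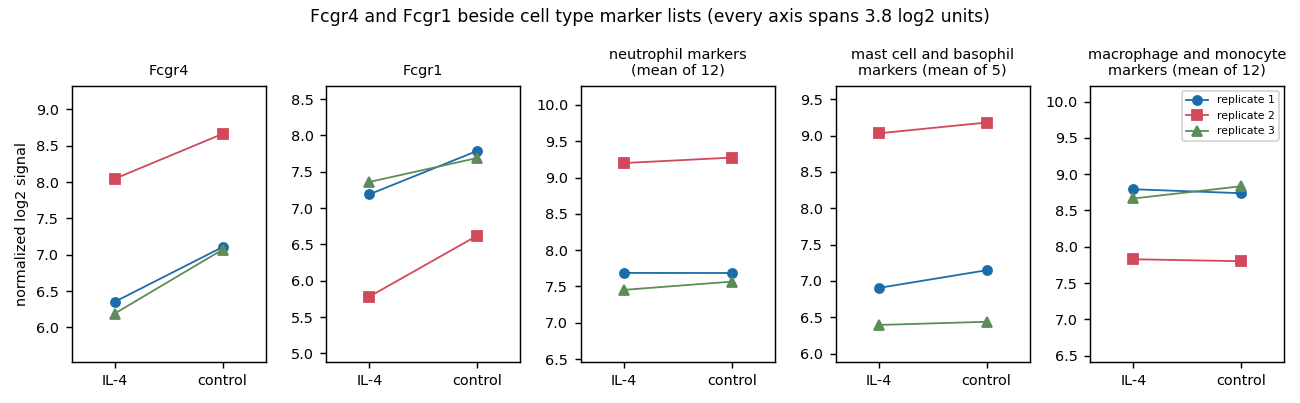
Normalized log2 signal of *Fcgr4* and *Fcgr1* beside the mean of each marker list, IL-4 left and control right, with a line per replicate number. Replicate 2 stands high for *Fcgr4*, neutrophil markers and mast cell markers, and low for *Fcgr1* and macrophage markers.

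Of the tested partners of the receptors and the related adaptor *Tyrobp*, none passed the test. β2-microglobulin (*B2m*), the light chain of FcRn, had log2 signals of 13.63, 13.23 and 13.56 with IL-4, against 13.71, 13.43 and 13.51 in controls, a difference of -0.08 (blocked limma adjusted p = 0.889). The kinase *Syk* was at 5.57, 6.06 and 5.26 with IL-4, against 6.28, 5.76 and 5.54 in controls, a difference of -0.23 (0.689). The arrays of both genes overlapped between the groups. *Inpp5d* was at -0.20 (0.684), *Ptpn6*, the tyrosine phosphatase SHP-1, at -0.14 (0.776), and *Tyrobp*, the adaptor DAP12, at -0.32 (0.469). *Lyn*, *Fcer1a* and *Ms4a2* were not tested.

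Over 6 lists of Fc receptor pathway genes, 92 of 136 genes were tested, and the blocked fit called 4 higher and 4 lower, where it called 2.66% of all 8921 genes, 1.65% higher and 1.01% lower. The unpaired limma fit called 0 of the 92, against 0.123% of all genes, and 19 were at an unadjusted p under 0.05, against 8.38% of all genes. With the deposited normalized values or without the detection filter the blocked fit made none of these calls either. The 3 other Fc receptors measured, *Fcrls*, *Fcmr* and *Trim21*, had log2 differences of -0.02, 0.02 and 0.00, and none was called. Of 30 ITAM signalling genes 2 rose with the block, the B cell linker *Blnk* and the paracaspase *Malt1*, around a list median of 0.02. *Blnk* was at 7.07, 5.72 and 6.83 with IL-4, against 6.07, 4.98 and 6.01 in controls, a difference of 0.85 ± 0.15 (SE, adjusted p = 0.0115 in blocked limma). *Malt1* differed by 0.72 ± 0.17 (adjusted p = 0.0430). Both were higher with IL-4 in all 3 pairs.

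Of 14 genes of ITIM and other inhibitory signalling 1 fell, *Pilra*, an inhibitory paired receptor, around a list median of -0.17. It was at 9.58, 9.20 and 9.72 with IL-4, against 10.51, 10.46 and 10.51 in controls, without overlap, a difference of -0.99 ± 0.16 (adjusted p = 0.00630 in blocked limma). Of 13 receptors coupled to the γ chain and sister adaptors 2 fell, the C-type lectins *Clec4e* (Mincle) and *Clec4d*, around a list median of -0.20. *Clec4e* was at 8.13, 6.92 and 7.97 with IL-4, against 9.36, 7.72 and 9.56 in controls, a difference of -1.21 ± 0.18 (adjusted p = 0.00361). *Clec4d* was at 9.96, 9.41 and 9.95 with IL-4, against 10.91, 10.21 and 11.01 in controls, without overlap. Its difference was -0.94 ± 0.15 (adjusted p = 0.00662 in blocked limma). The other 11 genes of that list were not called.

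Among 15 genes for the FcRn partner, related class I molecules and endosomal sorting 1 rose and 1 fell, around a list median of 0.05. *Hfe*, a class I-like regulator of iron uptake, was at 9.34, 9.60 and 8.77 with IL-4, against 7.59, 8.25 and 7.54 in controls, a difference of 1.44 ± 0.16 without overlap (adjusted p = 6.58e-04 in blocked limma). *Cd1d1*, which presents lipids, was at 8.16, 7.21 and 8.29 with IL-4, against 8.99, 8.35 and 9.28 in controls, also without overlap. Its difference was -0.99 ± 0.15 (adjusted p = 0.00520 in blocked limma). *Mr1*, another class I-like chain of the list, was dim and differed by 0.05 (adjusted p = 0.936). Of 17 genes of the phagosome and of cargo uptake 1 rose, the myosin *Myo1e*, around a list median of -0.05. *Myo1e* was at 9.81, 8.80 and 9.85 with IL-4, against 8.01, 7.46 and 8.23 in controls, without overlap. Its difference was 1.59 ± 0.16 (adjusted p = 2.98e-04 in blocked limma).

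**Figure D5:**
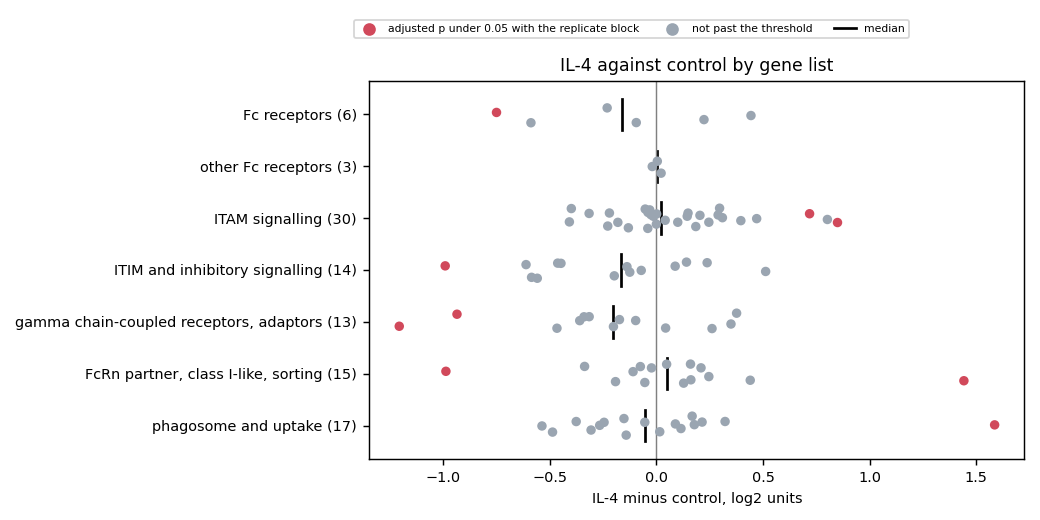
Log2 difference of IL-4 minus control for the tested genes of each list, one point per gene at its brightest probe, with the list median as a black line and red for an adjusted p under 0.05 in the blocked fit. The list medians lie between -0.20 and 0.05, and few genes per list are red.

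The genes whose pattern over the 6 arrays was most like that of each receptor were taken from 13589 other named probes by Pearson correlation, as a description of arrays that share treatment and replicate number. *Fcgr4* was most like *Dedd2* (r = 0.998), *Iqgap2* (0.994) and *Ttyh2* (0.994), and 128 probes had an r over 0.95. *Iqgap2*, a scaffold of the actin cytoskeleton, was itself lower with IL-4 (-0.86, adjusted p = 0.0127 in blocked limma). *Fcgr1* was most like *Dapk1* (0.991), *Mb21d2* (0.990) and *Fzd5* (0.988). The nearest to *Fcgr3* were *Rnaseh1*, *Cacfd1* and *H2-Q6* (0.993 to 0.995), and the nearest to *Fcer1g* were *Stx3*, *Akr1a1* and *Galnt12* (0.993 to 0.997).

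The *Fcgr2b* probe ILMN_1228657 was most like *Cdc42bpb* (0.999), *Tarsl2* (0.992) and *Ocrl* (0.990). The *Fcgrt* probe ILMN_1221819 had the fewest close neighbours, 19 probes over 0.95, led by *Slc17a5* (0.975), a lysosomal sialic acid transporter, *Noc2l* (0.970) and *Slc10a3* (0.969). Among the receptors themselves, *Fcgr2b* went with *Fcgrt* (r = 0.87) and against *Fcgr4* (-0.91), and *Fcgr1* went against *Fcgr4* (-0.63), all at the brightest probe and over the same 6 arrays.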

How the data were processed

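Polyadenylated RNA of 6 BMDC samples was hybridised to Illumina MouseWG-6 arrays. The authors deposited, for 45281 probes, the mean bead signal intensity without background correction, and a detection p-value against the negative controls. The authors also deposited 19293 probes on a log2 scale that lumi had variance-stabilized and spline-normalized, and tested them in limma. The sources used here give neither version.

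Here neqc (limma 3.58.1, R 4.3.3) subtracted background inferred from the deposited p-values, added an offset of 16 and quantile normalized the bead signals. A probe was kept where 3 or more arrays detected it at p under 0.05. These 16071 probes were fitted with lmFit and eBayes (two-sided tests, Benjamini-Hochberg adjustment across the 16071), with calls at an adjusted p under 0.05. Fold changes include the offset and so understate changes of dim probes. The main fit had no block (4 residual degrees of freedom). The study's methods name linear modelling of group pairs and do not say whether a replicate term was fitted. The replicate block left 2. Replicate numbers were taken as pairing because deviations from the group means correlated at 0.29, 0.55 and 0.62 between arrays of the same number (-0.55 to 0.096 otherwise), against a threshold of 0.1. The limma SEs, intervals and p-values combine the spread of each probe between these arrays with a prior variance estimated from all tested probes. This prior counted for 10.2 degrees of freedom in the blocked fit and 5.2 in the unpaired fit, more than the residual ones. The number of arrays limits the precision.

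Symbols came from the platform annotation of the 19293 probes with deposited normalized values, which gave 13600 tested probes 1 gene. The brightest probe stood for a gene in list counts. Named were the 6 receptors with all probes, 8 partners or related molecules and up to 4 called genes per pathway list. Named too were the 3 genes most correlated with each receptor. The most variable gene of a marker list was given for the neutrophil, mast cell and macrophage lists. Further dendritic cell and macrophage markers and *Mr1* were chosen after their values were seen. Members and lists were chosen with earlier results of these data known. Promoter windows came from RefSeq, and all 6 genes matched. Fits were tested on simulated data. Alternatives were the block, other background corrections, filters, the deposited normalized values, a variance trend and leaving out arrays. Blocked fits with offset 50, other filters or the trend were chosen after seeing the data.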

Additional observations from a re-analysis of the deposited data

How the results depend on the processing

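Across 25 alternatives, 9 of the 11 Fc receptor probes kept their direction. The exceptions were both near 0. *Fcgr2b* ILMN_3029178 turned to -0.0012 with the deposited normalized values and to -0.042 without replicate number 1, both with and without the replicate block, and ran from -0.091 to 0.14 with single arrays left out. *Fcer1g* turned to 0.0027 without replicate number 3, blocked or not, and ran from -0.17 to 0.025 with single arrays left out.

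The unpaired fit called 0 Fc receptor probes in every unpaired alternative. The replicate block gave 2, also without background correction, with offset 50, a detection p under 0.01 or the variance trend, and 1 to 2 with one replicate number left out. It gave 0 with the deposited normalized values and without the detection filter. Over all probes the unpaired fit called 18, against 0 with the deposited values, 1 without the filter and 1 to 67 with arrays left out. The study itself reported genes significantly altered by IL-4 in its limma fit, and why that fit differed was not tested. The block called 365 in all, 241 without background correction, 431 with offset 50, 515 with the trend, 347 with the stricter filter, 348, 842 and 266 without replicate numbers 1, 2 and 3, and 0 with the deposited values or without the filter.

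The F-test of replicate number called 844 probes, against 512 without background correction, 70 with the deposited values, 99 without the filter and 298 to 2473 with arrays left out. Of the Fc receptor probes it called 2, against 1 (*Fcgr4*) with the deposited values or without the filter. With arrays left out it called 0 to 3, and 0 without replicate number 2. The cause of these differences was not tested.

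*Fcgr4*, *Fcgr1* and 3 *Fcgr2b* probes were dim, where background correction weighs most. Without it the log2 difference was -0.45 for *Fcgr4*, -0.33 for *Fcgr1* and 0.71 for *Fcgrt* ILMN_2917497. Probe sequences were not used here, so reads of *Fcgr2b*, *Fcgr3* and *Fcgr4* shared between these similar genes were not tested. Protein was not measured on these arrays.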

Other observations

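Several receptors listed with the common γ chain and its sister adaptors also differed between replicate numbers, and those named here were chosen after their values were seen. *Lilra6*, an activating receptor of the leukocyte immunoglobulin-like family, was at 8.74, 10.27 and 8.57 on IL-4 replicates 1, 2 and 3, against 9.32, 10.24 and 9.10 on the control arrays (F-test of replicate number, limma adjusted p = 0.00221). *Trem3* was at 6.49, 7.52 and 6.29 with IL-4, against 6.92, 7.84 and 6.56 in controls (adjusted p = 0.00304). Both were highest in replicate 2, as *Fcgr4* was. *Trem2*, a lipid receptor of macrophages and microglia that signals through DAP12, was at 10.38, 9.05 and 10.15 with IL-4, against 10.26, 8.67 and 9.87 in controls (adjusted p = 9.94e-04). It was lowest in replicate 2, as *Fcgr1* and *Clec4e* were. In all, 4 of the 13 tested genes of that list passed the F-test, against 5.91% of all genes.

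Of the other Fc receptors, *Fcmr*, which binds IgM, was the only one to pass the F-test of replicate number (limma adjusted p = 0.00257). It was near background, detected on 1 IL-4 and 2 control arrays, and stood at 5.91 with IL-4 and 5.79 in the control of replicate 3, and at 4.62 to 4.76 in replicates 1 and 2.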
